A study of Mus musculus with 29 samples.

Results

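Neutrophil granule genes were followed across bulk RNA sequencing libraries of microglia sorted from mouse brain. The 10 genes, of 36982 in the count table, were Camp, Ltf, Ngp, S100a8, S100a9, Lcn2, Chil3, Hp, Anxa1 and Serpinb1a, matched by symbol. They were chosen by their read counts, which were high in 1 group, called PBL. The differences between PBL and any other group are therefore given as a description, without a test. The question was whether these genes move together from library to library.

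All mice were male C57BL/6J and received an intraperitoneal injection at 10 weeks of age and another 5 weeks later, and the brain was collected 3 hours after the latter. Each injection was either LPS, a bacterial cell wall product that triggers inflammation, at 1 mg/kg, or DPBS, a buffer. From 1 week after the first injection the mice were given by gavage for 5 days either BLZ945, an inhibitor of the receptor CSF1R that microglia need to survive, at 169 mg/kg per day, or its vehicle. BLZ945 removes microglia, which then repopulate the brain. In the group names P stands for DPBS, L for LPS and B for BLZ945. PP (5 libraries) received DPBS, vehicle and DPBS, and PL (4) DPBS, vehicle and LPS. PBP (5) received DPBS, BLZ945 and DPBS, and PBL (5) DPBS, BLZ945 and LPS. LL (5) received LPS, vehicle and LPS, and LBL (5) LPS, BLZ945 and LPS. The brains came from mice perfused with PBS, and the sort kept single, DAPI-negative events that were CD11b-high, CD45-intermediate and Ly6C-negative.

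Neutrophils are short-lived white blood cells that carry ready-made antimicrobial proteins in granules filled in sequence in the bone marrow. Primary granules are loaded first, with proteins such as myeloperoxidase. Secondary granules follow, with lactoferrin and the cathelicidin peptide, under transcription factors of the C/EBP family, and the mRNAs of most granule proteins decline as the cell matures. Mature mouse neutrophils display Ly6G and some Ly6C on their surface. In an uninflamed brain they are rare and lie mostly in vessels and borders. Several of the 10 genes are not confined to neutrophils. Lcn2 is an acute-phase gene that glia and endothelium can switch on, Hp is made mainly in liver, Anxa1 is found in many myeloid cells and Serpinb1a in many tissues.

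Total counts per library ran from 5670450 to 12671476, with a median of 7597841. A gene with no read in any library of a group lay below 0.0700 to 0.101 CPM (reads scaled to the library total), the level of 3 reads over the group, depending on the group; this limit covers counting error only. The microglia markers P2ry12 and Tmem119 were abundant in every library, with group means of 4169 CPM (PBL) to 11431 CPM (PP) for P2ry12 and 3919 CPM (LL) to 6960 CPM (PBP) for Tmem119. All PBL libraries were sorted on 1 day on the MoFlo XDP sorter, together with PBP 5 and nothing else. The other PBP libraries, PP and PL were sorted on the MoFlo Astrios on other days, and LL and LBL on the XDP on other days. PBL therefore cannot be told apart from its sorting day, except against the single library PBP 5. RNA quality numbers were 7.4 to 7.9 in PBL, 7.4 in PBP 5, 7.9 in LL 4 and 6.5 in PL 3.

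Of the 10 genes, 8 had a promoter in the RefSeq table, whose build (GRCm38.p6) is older than the GRCm39 build of the counts. On that build Camp, Ngp and Ltf all lie on chromosome 9, and S100a8, S100a9 and Chil3 on chromosome 3. The 250 bases before the annotated start are shown for the 3 secondary granule genes of chromosome 9, whose mean served as the reference pattern further on, and for Lcn2, the member called in 3 comparisons without PBL. Each is written 5′ to 3′ on the strand of its gene. Capitals mark TTGCNNAA on either strand, a loose form of the motif that C/EBP factors bind.
Camp, - strand, chr9:109849457-109849706: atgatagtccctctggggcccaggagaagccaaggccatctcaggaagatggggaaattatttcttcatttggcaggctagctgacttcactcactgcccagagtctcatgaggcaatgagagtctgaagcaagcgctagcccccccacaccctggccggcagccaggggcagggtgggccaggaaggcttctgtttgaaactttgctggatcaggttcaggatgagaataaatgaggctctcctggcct
Ngp, + strand, chr9:110419558-110419807: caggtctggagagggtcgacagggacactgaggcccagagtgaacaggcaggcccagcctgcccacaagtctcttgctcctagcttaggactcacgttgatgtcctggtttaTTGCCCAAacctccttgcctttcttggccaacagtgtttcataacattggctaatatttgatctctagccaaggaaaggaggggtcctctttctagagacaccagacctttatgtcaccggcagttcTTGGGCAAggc
Ltf, + strand, chr9:111019042-111019291: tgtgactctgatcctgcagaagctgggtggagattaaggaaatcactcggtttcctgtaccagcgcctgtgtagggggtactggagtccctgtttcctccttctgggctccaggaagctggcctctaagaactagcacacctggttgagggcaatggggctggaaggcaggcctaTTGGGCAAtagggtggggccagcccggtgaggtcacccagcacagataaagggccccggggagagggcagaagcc
Lcn2, - strand, chr2:32387740-32387989: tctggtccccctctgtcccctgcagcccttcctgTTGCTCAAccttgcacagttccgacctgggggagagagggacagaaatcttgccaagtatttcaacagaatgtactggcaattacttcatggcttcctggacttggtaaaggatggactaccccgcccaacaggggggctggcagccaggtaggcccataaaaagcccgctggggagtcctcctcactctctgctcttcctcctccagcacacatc
Within the window TTGCNNAA stood in 5 of the 8 promoters, against 9.56% of 32851 promoters in the table. The Ngp window held it 138 and 11 bases before the start, Ltf 75, Lcn2 216, S100a9 236 and Anxa1 143 bases before. It was not found in Camp, S100a8 or Chil3. Of the other strings searched on both strands, TTGCGNAA was in 0 of 8 (0.67% of promoters), TTNNGNAA in 7 (36.8%), TTGCNNCA in 3 (9.59%), GAGGAA in 4 (23.3%), AGAGGAA in 1 (8.55%), GGAAGT in 4 (19.7%) and TATAAA in 2 (12.4%). TTNNGNAA can overlap TTGCNNAA, and AGAGGAA contains GAGGAA. TTGCNNAA was chosen for display after these counts were seen, and a match is a description of letters, not a site.

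PBL held most of the reads of these genes. Camp encodes the cathelicidin peptide of secondary granules (ENSMUSG00000038357, chromosome 9). It had 251, 84, 232, 487 and 574 reads in PBL 1 to 5, or 50.7 ± 26.6 CPM (SD, n = 5). Outside PBL it had 4 and 14 reads in PP 2 and PP 3, 4 in PBP 5, 2 and 11 in PL 2 and PL 3, 2 and 23 in LL 2 and LL 4, and none in the other 17 libraries. All 5 LBL libraries were at 0, so the summed level was at least 680-fold higher in PBL than in LBL. Every PBL library lay above every other library.

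Ngp, which encodes neutrophilic granule protein, a relative of the cathelicidins (ENSMUSG00000032484, chromosome 9), was the most abundant of the 10 in CPM. It had 718, 278, 506, 1008 and 1433 reads in PBL 1 to 5 (123 ± 57.5 CPM, SD, n = 5). The highest libraries elsewhere were LL 4 with 101 reads, PL 3 with 58, PBP 5 with 20 and PP 3 with 16, and no other library had more than 5. Ltf encodes lactoferrin, the iron-binding protein of secondary granules (ENSMUSG00000032496, chromosome 9). It had 98, 56, 95, 241 and 178 reads in PBL 1 to 5 (21.1 ± 10.5 CPM, SD, n = 5), 31 in LL 4, 9 in PL 3, 2 in PBP 5, 1 in PL 2 and 1 in LBL 1. In PP it had none, which makes PBL at least 286-fold higher than PP. For both genes the PBL libraries stood clear of all others, and LL 4, PL 3 and PBP 5 were among the next.

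S100a8 and S100a9 encode the partner chains of calprotectin, which fills the neutrophil cytosol and binds zinc and manganese. S100a8 (ENSMUSG00000056054, chromosome 3) had 513, 161, 318, 765 and 729 reads in PBL 1 to 5 (78.6 ± 36.5 CPM, SD, n = 5), and S100a9 (ENSMUSG00000056071, chromosome 3) had 188, 88, 178, 428 and 368 (39.3 ± 19.6 CPM). Outside PBL, PL 3 had 51 reads of S100a8 and 17 of S100a9, LL 4 had 45 and 24, PL 4 had 15 and 9, and PP 3 had 11 and 21. In the remaining libraries S100a8 had at most 13 reads, in LBL 1, and S100a9 at most 6, in LL 2. Chil3 encodes a chitinase-like lectin of granulocyte precursors and activated macrophages (ENSMUSG00000040809, chromosome 3). It had 129, 46, 164, 318 and 296 reads in PBL (29.8 ± 15.9 CPM, SD, n = 5), 23 in LL 4, 14 in PL 3, 8 in PP 3, 3 in PBP 5, 2 in PL 2 and none in the other 19. Chil3 can share reads with its near-identical relatives, so its value is uncertain by that much.

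The other 4 genes were lower. Lcn2 encodes lipocalin 2, which binds the iron carriers of bacteria (ENSMUSG00000026822, chromosome 2). It had 82, 27, 72, 107 and 87 reads in PBL 1 to 5 (12.0 ± 4.48 CPM, SD, n = 5), and the lowest PBL library, at 4.80 CPM, was just above LL 4 at 4.15 CPM. Hp encodes haptoglobin, the scavenger of free haemoglobin (ENSMUSG00000031722, chromosome 8), with 146, 21, 97, 110 and 70 reads in PBL (14.6 ± 8.47 CPM, SD, n = 5). It is the member whose groups overlapped, since LL 4 with 92 reads (12.7 CPM) lay above PBL 2 (3.73 CPM) and PBL 5. Anxa1 encodes annexin A1, a calcium-dependent protein that limits neutrophil recruitment (ENSMUSG00000024659, chromosome 19), with 74, 7, 50, 148 and 130 reads in PBL (12.7 ± 8.37 CPM, SD, n = 5) and at most 9 reads elsewhere, in PP 3. Serpinb1a encodes an inhibitor of neutrophil proteases (ENSMUSG00000044734, chromosome 13). It had 11, 7, 9, 33 and 28 reads in PBL (2.74 ± 1.67 CPM, SD, n = 5), 2 to 5 in every PBP library and 1 to 6 in every LL library. Serpinb1a can share reads with Serpinb1b and Serpinb1c.

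**Figure D1:**
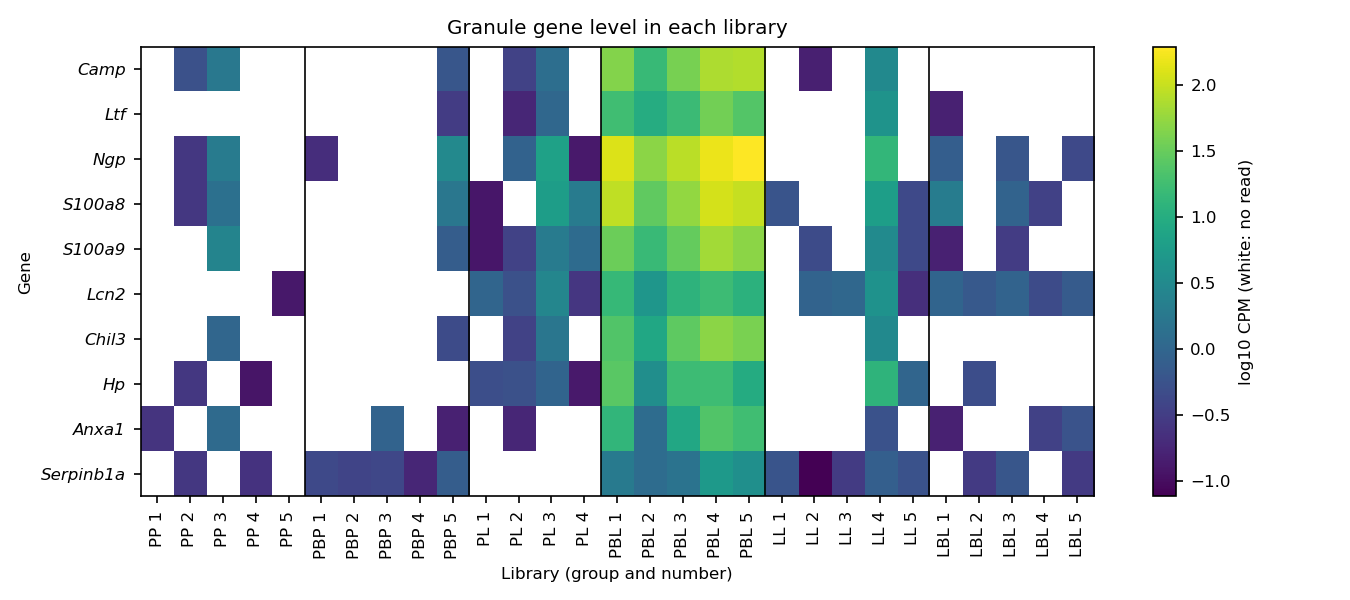
Level of each of the 10 granule genes (rows) in each of the 29 libraries (columns, by group), as log10 CPM; white cells have no read and vertical lines separate the groups. The PBL block is filled for all 10 genes, and outside it the fullest columns are LL 4 (10 genes with a read), PL 2, PL 3 and PBP 5 (8 each) and PP 3 and LBL 1 (6 each).

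In 9 of the 10 genes all PBL libraries exceeded all 24 others, the exception being Hp; among all genes tested 0.812% did so. Since the genes were picked for PBL, nothing is read from that count. Over the 10 genes the median ratio of summed reads was 172 for PBL against PP, 276 against PBP, 49.3 against PL, 52.6 against LL and 270 against LBL, with genes absent from the other group set at 3 reads. The LL value rests on LL 4 and the PL value on PL 3: without LL 4 the median against LL was 207 (Hp 57.0), and without PL 3 that against PL was 194. Without PP 3 the median against PP was 356, and without PBP 5 that against PBP was 312; these exclusions were chosen after seeing the data. The ratios ran from 7.06 (Serpinb1a) to 555 (Camp) against PBP and from 6.11 (Hp) to 142 (Anxa1) against LL. The model's median log2 fold change over the 10 genes was 8.25 for PBL against PBP, 5.83 for PBL against PL and -7.78 for LBL against PBL, where 43.1%, 22.1% and 6.74% of all genes tested were called. With the sorter in the model the first fell to 5.98 and the second to 1.56; the sorter can be estimated only through PBP 5. Without PBP 5 the first was 10.5 and without PL 3 the second was 7.54. In bulk RNA, fewer cells of a type and less RNA per cell cannot be told apart. PBP 5, sorted beside PBL, had 51 reads of the 10 genes in all (7.92 CPM), against 138 to 566 CPM in PBL and 0.179 to 1.34 CPM in PBP 1 to 4.

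Per kilobase of exon, the mean level in PBL was 113 CPM per kb for S100a8, 101 for Ngp, 75.2 for S100a9, 66.8 for Camp, 18.3 for Chil3, 9.09 for Hp, 6.11 for Ltf, 4.59 for Lcn2, 4.38 for Anxa1 and 1.19 for Serpinb1a. Exon lengths came from GENCODE gene models on GRCm38. The SD over libraries was 37.2% to 65.7% of each gene's mean. The genes were read in the same PBL libraries, so this SD does not measure the spread of a difference between genes. The order of neighbours such as S100a8 and Ngp, or Lcn2 and Anxa1, was not tested.

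The 5 PBL libraries differed among themselves, and PBL 2 stood lowest throughout. PBL 2 was the lowest for all 10 genes, PBL 4 the highest for 7, PBL 5 for Camp and Ngp, and PBL 1 for Hp. The highest library exceeded the lowest 3.46-fold for Lcn2, 3.76-fold for Ltf, 3.96-fold for Ngp and 18.5-fold for Anxa1. The summed reads of the 10 genes were 2210, 775, 1721, 3645 and 3893. With 5 libraries no correlation was computed within PBL.

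Reads of these genes outside PBL were concentrated in few libraries. The 10 genes together had 379 reads in LL 4, 192 in PL 3, 79 in PP 3 and 51 in PBP 5, and 1 to 28 in each of the other 20 libraries. Each of the 4 belongs to a different group, and 2 of them, PP 3 and PBP 5, came from mice without LPS. In the same groups the other libraries had 8 to 24 reads (LL), 14 to 28 (PL), 1 to 12 (PP) and 2 to 10 (PBP). LBL had no such library, with 10 to 27 reads.

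In these libraries and in PBL the 10 genes took comparable but not equal shares of their summed reads. Ngp made up 27.7% to 36.8% of them in PBL, 26.6% in LL 4 (95% Wilson interval 22.4% to 31.3%), 30.2% in PL 3 (24.2% to 37.0%), 39.2% in PBP 5 (27.0% to 52.9%) and 20.3% in PP 3 (12.9% to 30.4%). Hp departed from that: its share was 24.3% in LL 4 (20.2% to 28.8%) and 1.80% to 6.61% in PBL. Lcn2 made up 12.5% in PL 3 (8.55% to 17.9%) and 7.92% in LL 4 (5.60% to 11.1%), against 2.23% to 4.18% in PBL. S100a9 made up 26.6% in PP 3 (18.1% to 37.2%) and 8.51% to 11.7% in PBL. PP 3 had no read of Ltf, Lcn2, Hp or Serpinb1a, which at 79 reads allows a share of up to 4.64% for each. The intervals cover counting error only.

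**Figure D2:**
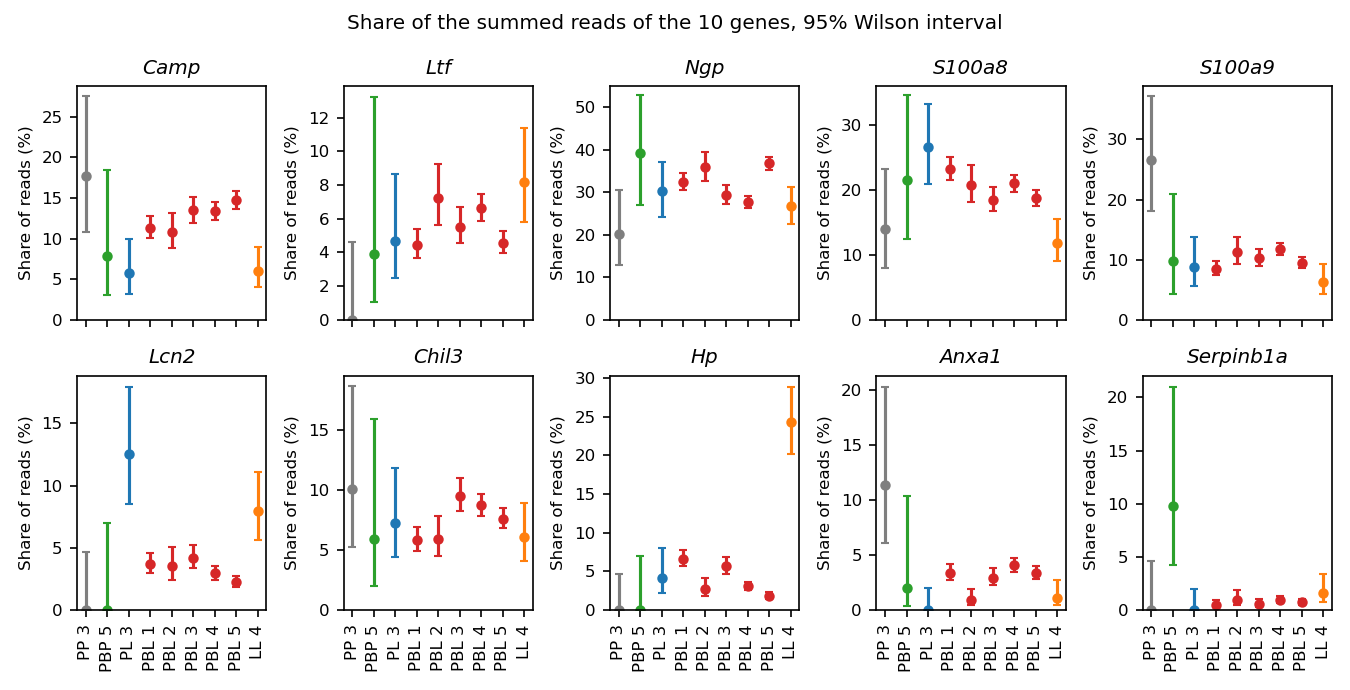
Share of each gene (panels) in the summed reads of the 10 genes, in percent, in the 9 libraries with at least 50 such reads; points are single libraries coloured by group and bars are 95% Wilson intervals. Hp stands at 24.3% in LL 4 against 1.80% to 6.61% in PBL, and Lcn2 is highest in PL 3 at 12.5%.

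Whether the genes moved together within groups was tested on deviations of log2 CPM (prior count 2) from the group mean, over all 29 libraries and for all 45 pairs, by permuting libraries within groups (two-sided, 100000 permutations) with Benjamini-Hochberg adjustment over the pairs. All 45 Pearson coefficients were positive, from 0.155 to 0.952 with a median of 0.618. By Pearson's r 27 pairs were called at an adjusted p under 0.05, and by Spearman's rho 20 were. The share of pairs called among other genes was not computed. These counts therefore do not show whether moving together is particular to the granule genes. The closest pair was Camp and Chil3 (r = 0.952, permutation p = 2e-05, adjusted 0.00027; rho = 0.892, p = 6e-05, adjusted 0.00054; r = 0.910 without the 2 libraries farthest on Camp). Camp and Ngp had r = 0.918 (permutation p = 1e-05, the smallest 100000 permutations can give, adjusted 0.00027) and rho = 0.831 (p = 1e-05, adjusted 0.00045). Ngp and Chil3 had r = 0.922 and rho = 0.873, and Ltf and Chil3 r = 0.885 and rho = 0.753.

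Among Camp, Ltf, Ngp, S100a8, S100a9 and Chil3, a subset named after the values were seen, r ran from 0.675 to 0.952 and all 15 pairs were among the 27. The calprotectin pair S100a8 and S100a9 had r = 0.827 (permutation p = 3e-05, adjusted 0.00027) and rho = 0.734 (p = 0.00031, adjusted 0.00199). Lcn2 was called in 4 of its 9 pairs, Hp in 3 and Anxa1 in 5. Serpinb1a was called in none of its 9 by the permutation test, with r from 0.155 to 0.418 and an unadjusted p under 0.05 in 0 of them by r. Lcn2 and S100a8 had r = 0.400 (permutation p = 0.129, adjusted 0.138) and rho = 0.207 (p = 0.377, adjusted 0.404).

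How many pairs were called depended on few libraries. Leaving out LL 4 and PL 3, the 2 farthest from the median of the mean deviation, left 17 of 45 pairs called, with a median r of 0.342. All 15 pairs of the subset of 6 genes were among them, with a median r of 0.715, as they were without PBL and with a prior count of 0.5. Leaving out PP 3, PBP 5, PL 3 and LL 4, an alternative added after seeing the data, left 1 pair, Camp and Ngp (r = 0.679, permutation p = 0.00067, adjusted 0.0302; rho = 0.692, p = 0.00067, adjusted 0.0302), and a median r of 0.373. By Spearman's rho 2 pairs were left, Ltf and Ngp being the other (rho = 0.677, permutation p = 0.00161, adjusted 0.0362). In that setting the r of Camp and Chil3 was 0.806 and that of Ltf and Chil3 0.878, neither of them called. Without the 5 PBL libraries 16 pairs were called, with a median r of 0.589. Among the 15 libraries of PBL, LL and LBL, all sorted on the XDP, 29 were called, with a median of 0.751. Red blood cell, neuron and RNA quality values also differed between libraries of a group. Sorting day differed within PBP, PL, LL and LBL, and the sorter within PBP, and libraries were permuted across these. The part of all these differences in the correlations was not tested.

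**Figure D3:**
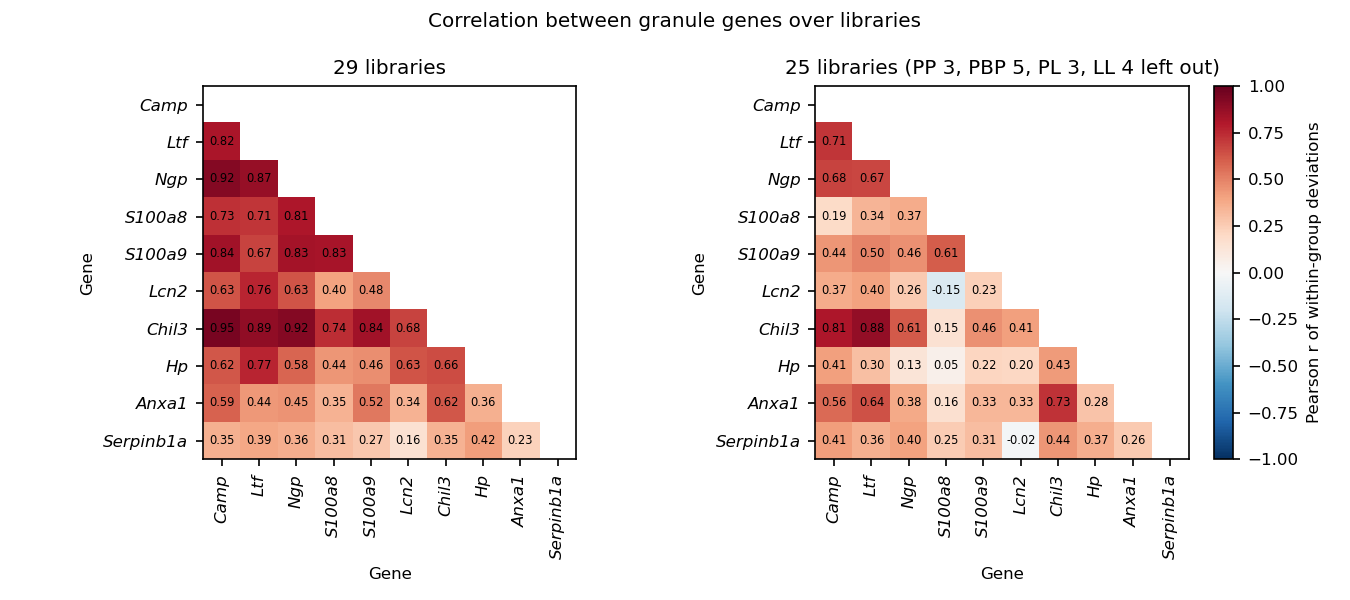
Pearson r between each pair of granule genes, from deviations of log2 CPM from the group mean, over 29 libraries (left) and over the 25 left after PP 3, PBP 5, PL 3 and LL 4 were taken out (right). The median r is 0.618 on the left and 0.373 on the right, where 1 of 45 pairs passed the test instead of 27.

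The comparisons without PBL could be tested. All 10 genes passed the filter on low counts, but 8 did so only through PBL; without PBL, Ngp and S100a8 remain. The filter and the model thus draw on PBL even here. With no filter, Lcn2 had an edgeR adjusted p of 0.000362, 0.000208 and 0.000568 in the 3 comparisons that follow, and with PBL out of the model and the genes kept, 0.00374, 0.00257 and 0.00336. In mice with their original microglia, LPS after DPBS (PL against PP) came with higher Lcn2: PL 1 to 4 had 8, 3, 24 and 2 reads, or 1.16 ± 1.16 CPM (SD, n = 4), and the PP libraries had 1 read in PP 5 and none in the other 4. Every PL library was above every PP library. The ratio of summed reads was 49.5, with a counting interval of 8.35 to 2007, and the edgeR log2 fold change was 4.86 (SE 1.096, adjusted p = 0.00104). It was the only one of the 10 called, against 26.2% of all genes tested called and 14.2% called higher. S100a8 had 1, 0, 51 and 15 reads in PL and was not called (edgeR log2 difference 2.65, SE 1.41, adjusted p = 0.178), and the other 8 genes had adjusted p from 0.159 to 0.978. Without PP 3, S100a9 was called too, which had 21 reads in PP 3 and none in the other PP libraries.

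LPS given after earlier LPS (LL against PP) came with higher Lcn2 as well. LL 1 to 5 had 0, 12, 7, 30 and 2 reads, or 1.27 ± 1.67 CPM (SD, n = 5), a ratio of 47.2 with a counting interval of 8.10 to 1900 (edgeR log2 fold change 4.93, SE 1.06, adjusted p = 0.000651); 4 of the 5 LL libraries were above all of PP. Hp and Ltf were called too, so 3 of 10 in all, against 32.1% of all genes tested called and 18.9% called higher. For both of these most reads came from LL 4: Hp had 0, 0, 0, 92 and 9 reads in LL (edgeR log2 fold change 4.88, SE 1.46, adjusted p = 0.0135), and Ltf had 31 reads in LL 4 and none elsewhere in LL or PP, at least 9.56-fold higher than PP (adjusted p = 0.0276). Without LL 4 both calls were lost and Lcn2 alone was left. Without PP 3, 4 were called, S100a9 being added. Ltf also missed the threshold with DESeq2 (adjusted p = 0.0822) and without the filter (0.0759), and Hp with the replicate number as a block (0.0562). All LL libraries were sorted on the XDP and all PP libraries on the Astrios, on other days. LPS therefore cannot be told apart from sorter and day in this comparison. The same holds for earlier LPS in LL against PL.

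In mice whose microglia had repopulated, repeated LPS (LBL against PBP) gave the same call. LBL 1 to 5 had 6, 7, 6, 4 and 5 reads, or 0.748 ± 0.201 CPM (SD, n = 5), and all PBP libraries were at 0, so LBL was at least 10.2-fold higher (edgeR adjusted p = 0.00145); each LBL library was above each PBP library. It was the only one called, against 28.2% of all genes tested called and 14.6% called higher. The other 9 genes, Camp and Chil3 at 0 in all LBL libraries among them, had 0 to 13 reads per LBL library and adjusted p from 0.391 to 0.973. With the sorter in the model no gene of the 10 was called in LL against PP or LBL against PBP, where the fitted log2 values of Lcn2 were 4.93 and 5.54 (adjusted p = 1.00 and 0.263). LBL was sorted on the XDP and PBP, except PBP 5, on the Astrios. Only PBP 5 thus separates LPS from the sorter there.

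The other comparisons called none of the 10. Depletion without LPS (PBP against PP) gave 0 by edgeR, 0 at an unadjusted p under 0.05 and 0 by DESeq2, where edgeR called 0.529% of all genes. Earlier LPS in undepleted mice (LL against PL) gave 0 by edgeR, 1 at an unadjusted p under 0.05 and 1 by DESeq2, against 2.78% of all genes by edgeR. That 1 was Serpinb1a, with 4, 1, 2, 6 and 5 reads in LL and none in PL, at least 4.15-fold higher (edgeR adjusted p = 0.0563, DESeq2 adjusted p = 0.0336). Depletion between LPS injections (LBL against LL) gave 0 by edgeR, 4 at an unadjusted p under 0.05 (Camp, Ltf, Chil3 and Hp, all lower in LBL) and 0 by DESeq2, which gave no adjusted p for 4 of the 10; edgeR called 1.21% of all genes. The 4 have their LL reads mostly or wholly in LL 4. The difference between the responses to repeated LPS with and without depletion, (LL against PP) minus (LBL against PBP), called 0 of the 10 and 0% of all genes by edgeR; 1 of the 10, Serpinb1a, and 692 genes in all had an unadjusted p under 0.05.

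**Figure D4:**
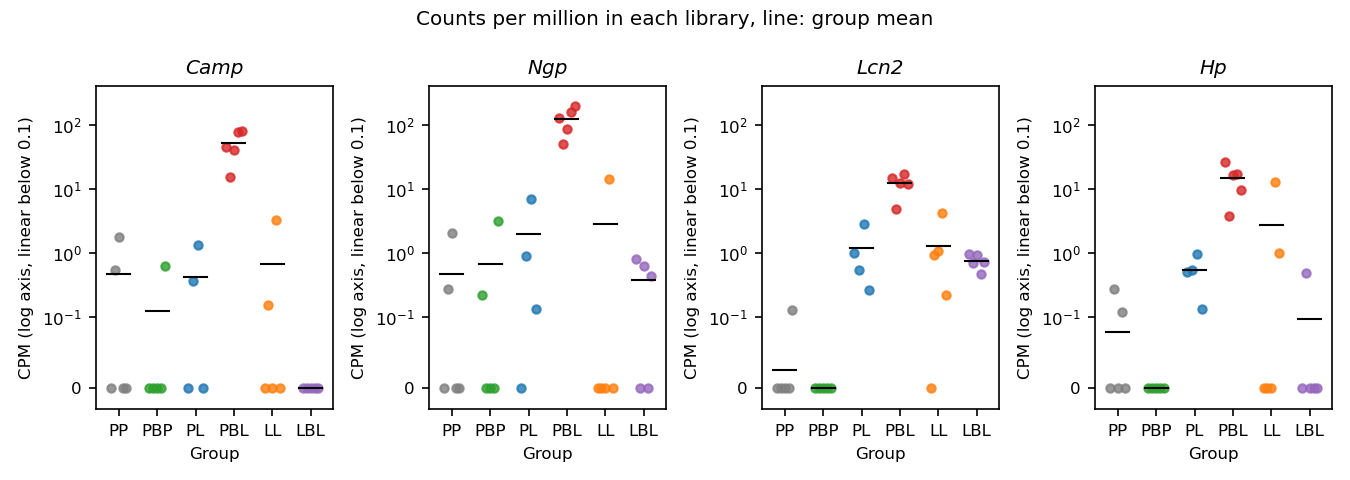
CPM of Camp, Ngp, Lcn2 and Hp in each library by group, on an axis that is logarithmic above 0.1 and linear below; points are libraries and lines are group means. Lcn2 has reads in 13 of the 14 LPS libraries outside PBL and in 1 of the 10 libraries without LPS, whereas Camp is at 0 in all LBL libraries and Hp in 4 of 5.

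Other neutrophil genes, from lists also chosen with earlier results known, were read beside the 10. Of 10 further secondary and tertiary granule genes, 5 passed the filter. Of these, 4 were higher in PBL than in PBP and 3 higher than in PL, where 21.5% and 11% of all genes tested were called higher, and 3 were lower in LBL than in PBL (4% of all genes). Since 3 of the 5, Cd177, Ifitm6 and Pglyrp1, passed the filter only through PBL, these counts are a description and support nothing. None of the 5 was called in the 6 comparisons without PBL. Cd177, a surface and granule protein of a neutrophil subset, had 31, 9, 34, 22 and 99 reads in PBL and none in any of the other 24 libraries. Pglyrp1, a peptidoglycan-binding granule protein, had 20, 3, 21, 30 and 33 reads in PBL and at most 7 elsewhere. Olfm4 was spread over all groups, at 14.3 ± 2.05 CPM in PBL and 3.93 to 8.76 CPM as means of the others, and Mmp25 was not called against PBP (adjusted p = 0.0825). The 5 that did not pass the filter are named after their values were seen. Mmp8, the neutrophil collagenase, had 6, 10, 4, 52 and 2 reads in PBL and at most 2 elsewhere. Summed over PBL, Wfdc21 had 59 reads, Fcnb 29 and Itgb2l 26, each with at most 2 in any other group. Mmp9 did not share that pattern, with 0, 0, 3, 2 and 5 reads in PBL and 14 in PP 5.

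Primary granule genes were at or near 0. Of the 4 in the table, Ms4a3 had no read in any library, and in PBL Mpo and Prtn3 had none and Elane had 5 reads, all in PBL 4. No primary granule gene passed the filter. Among 12 genes of mature neutrophils, 5 passed, of which 4 were higher in PBL than in PBP (21.5% of all genes) and 1, Retnlg, higher than in PL (11%). Retnlg passed the filter only through PBL. In the same list 3 were higher in PL than in PP (14.2% of all genes), 2 higher and 1 lower in LL than in PP (32.1% in either direction), and 2 higher in LBL than in PBP (14.6%). Retnlg, a secreted protein of neutrophils, had 27, 12, 21, 33 and 8 reads in PBL and at most 8 elsewhere. Trem1, an amplifying receptor of myeloid cells, was instead present in every LPS library (80 to 249 reads) and absent from every library without LPS. Csf3r, the receptor for the growth factor G-CSF, was at 202 to 295 CPM as group means in all 6 groups. Clec4d averaged 3.73 CPM in PL and 1.41 CPM in PBL, with no read in PP or PBP. Il1r2 averaged 2.48 CPM in PL and 4.56 CPM in PBL. Both were called higher in PL than in PP (edgeR adjusted p = 8.4e-06 and 0.00673). Neither was called between PBL and PL (edgeR adjusted p = 0.166 and 0.375). Ly6g, the defining surface marker, had 1 and 5 reads in PBL 1 and PBL 3 and none elsewhere. Of 5 granulocyte transcription factors 3 passed the filter, of which 2 were higher and 1 lower in PBL than in PBP (43.1% in either direction). Of the same 3, 1 (Cebpd) was higher in PBL than in PL (11%), and 2 were higher in PL than in PP (14.2%). Gfi1 had no read in any library. Cebpe did not pass the filter and is named after its values were seen. It had 4, 0, 8, 7 and 0 reads in PBL and at most 4 elsewhere. Of 9 monocyte genes 7 passed the filter, of which 3 were higher and 1 lower in PBL than in PBP (43.1% of all genes in either direction), and 1 higher and 1 lower in PBL than in PL (22.1%). Ccr2, the chemokine receptor of blood monocytes, was the 1 lower in PBL than in PBP, at 2.78 against 15.2 CPM as group means (edgeR log2 difference -2.45, adjusted p = 1.73e-05). The 3 higher were Ms4a4c (edgeR log2 difference 1.40, adjusted p = 5.42e-05) and, named after their values were seen, Fn1 (3.55, 1.49e-07) and Plac8 (3.62, 2.6e-05). Ly6c2, which did not pass the filter and is named after its values were seen, had 16, 3, 2, 11 and 13 reads in PBL and at most 3 elsewhere.

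The genes whose pattern over the 29 libraries was most like the mean log2 CPM of Camp, Ltf and Ngp, members aside, were Cd177 (Pearson r = 0.910), Ifitm6 (0.893), AC102108.1 (0.869), Atg16l2 (0.857), Malt1 (0.855), Retnlg (0.849), Pglyrp1 (0.840), Gm20274 (0.816), Lacc1 (0.810) and Hivep3 (0.807). The level of PBL against the rest enters this measure, so it is given as a description. Atg16l2, Malt1, Lacc1 and Hivep3 had 6719 to 10230 reads outside PBL, whereas Cd177 had 0, Retnlg 21, Ifitm6 22 and Pglyrp1 44. On deviations from the group means the nearest gene was Exoc4 (0.711), followed by Bri3 (0.679), and none of the first 10 names recurred among the first 10 by deviation. For comparison the r of the members with that mean was 0.993 for Chil3, 0.969 for S100a9, 0.956 for S100a8, 0.912 for Hp, 0.895 for Anxa1, 0.872 for Lcn2 and 0.786 for Serpinb1a; by deviation these were 0.959, 0.828, 0.793, 0.666, 0.507, 0.691 and 0.381.

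Marker lists of other cell types also differed between the libraries. The summed level of 6 red blood cell genes was 60.03, 5.68, 155, 82.9 and 95.5 CPM in PBL 1 to 5, 29.5 to 98.5 in LL, 19.6 to 56.0 in LBL, 6.48 to 19.8 in PL, 1.44 to 7.43 in PP and 75.5 in PBP 5 against 0.134 to 7.20 in the other PBP libraries. PBL 2 was lowest both in this list and in the granule genes, and PBL 3, highest in red blood cell genes, had the second lowest granule gene sum of PBL. For 10 neuron genes the sums were 119 to 238 CPM in PBL, 52.0 to 228 in LL, 87.4 to 225 in LBL, 171 in PBP 5, 25.7 to 49.6 in PBP 1 to 4, 24.8 to 51.7 in PL and 11.9 to 36.0 in PP. LL 5 and LBL 1 to 4 had neuron sums of 121 to 228 CPM, within the range of PBL. Their granule gene sums were 1.15 to 4.26 CPM. LL 1 to 4 and LBL 5 lay below the neuron range of PBL, at 52.0 to 105 CPM, with granule gene sums of 1.17 to 52.4 CPM. The sum of 9 monocyte genes was 43.0 to 70.8 CPM in PBL and 32.0 to 69.9 CPM elsewhere. LL 4, the library with most granule gene reads outside PBL, was the lowest of LL in red blood cell genes (29.5 CPM), with 76.6 CPM for neurons. The libraries with most granule reads had RNA quality numbers of 7.4 to 7.9 (PBL), 7.9 (LL 4), 6.5 (PL 3), 8.8 (PP 3) and 7.4 (PBP 5). Low numbers also occurred with few granule reads, in LBL 5 (7.6, 14 reads) and LL 3 (7.9, 9 reads). The part of these differences in the granule gene levels was not tested.

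**Figure D5:**
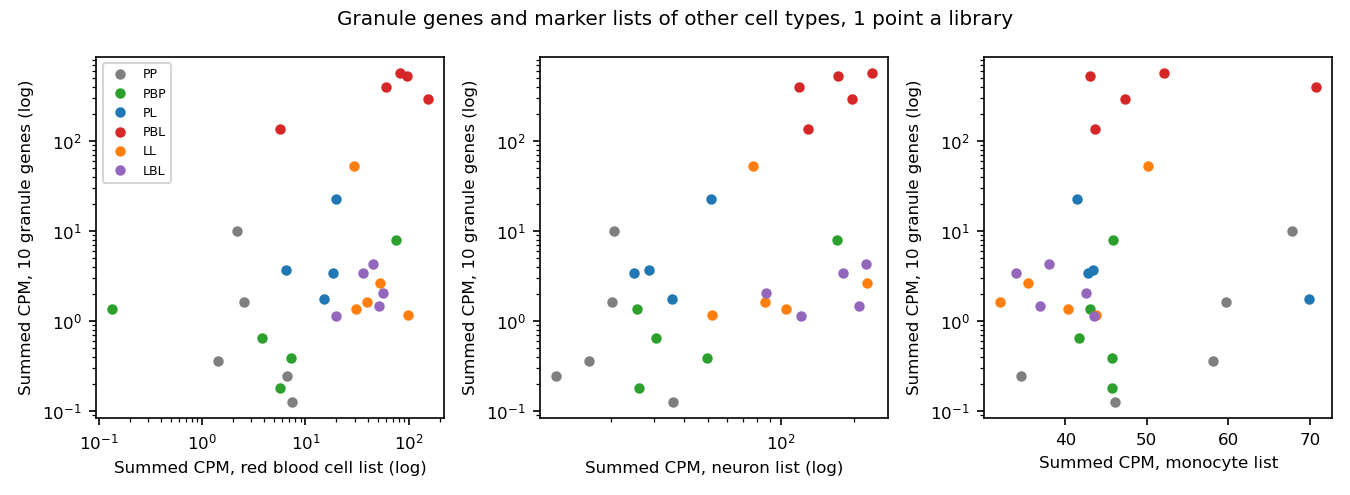
Summed CPM of the 10 granule genes (vertical, logarithmic) against the summed CPM of red blood cell, neuron and monocyte marker lists (horizontal, logarithmic except for monocytes), 1 point per library, coloured by group. LL 5 and LBL 1 to 4 lie at 121 to 228 CPM in the neuron list, with granule sums of 1.15 to 4.26 CPM. PBL lies at 119 to 238 CPM in that list, with granule sums of 138 to 566 CPM.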

How the data were processed

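RNA of sorted microglia was measured in 29 samples, 1 library each, per the labels. The authors deposited whole-number read counts per gene, not normalized; FastQC 0.11.9, cutadapt 2.10, TopHat, SAMtools 1.10, Picard 2.13.2, HTSeq 0.11.0 and the build GRCm39 are named in the submitters' processing notes, without role or order. TopHat's version, the annotation release and the strand setting were not given in the sources used here. The deposited sample table gives the RNA quality number, an integrity score, and the RNA concentration.

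Counts were analysed with edgeR 4.0.16 in R 4.3.3: filterByExpr kept 16632 genes, TMM set the scaling, and the robust quasi-likelihood model had 6 group coefficients over the 29 libraries and no covariate. Tests are two-sided, with Benjamini-Hochberg adjustment over all genes tested and calls at an adjusted p under 0.05. CPM uses TMM-scaled totals. The genes and all lists were chosen with earlier results of these data known. Beyond the 10 genes, at most the 4 of highest mean CPM per list were named, with defining markers near 0, and the 10 genes of most similar pattern. Genes named beyond this rule, after their values were seen, are marked as such. Pair correlations used Python 3.11.15 with numpy 2.4.6. The labels name no animal for a sample, and the p-values rest on the variation among the sampled libraries, which may be partly technical. Replicate numbers did not pair the samples. All 56 within-group pairs of libraries differed beyond sampling noise. The tests were checked on simulated data. The edgeR check placed changes in PL against PP only, and the pair check used normally distributed values. Neither imitated genes mostly at 0 with single high libraries, so the checks do not cover most of the 10 genes outside PBL. Alternatives were RLE scaling, DESeq2 1.42.0, no filter, a prior count of 0.5, the sorter or replicate number in the model, PBL left out, and each library left out.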

Additional observations from a re-analysis of the deposited data

Results flagged for a closer look

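A library far from the others of its group, by Dixon's 95% criterion in groups of 4 or 5, was found in 27 of the 54 sets of 1 gene and 1 group with a read, where the criterion gives about 1 in 20 for normally distributed values. That rate does not hold for counts mostly at 0: in 15 of the 27 all reads lay in 1 library, which meets the criterion by construction. Each was the highest of its group, and 22 of the 27 lay in LL 4, PBP 5, PP 3 or PL 3. The sets share libraries and are not independent.

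LL 4 stood apart for 9 genes: Ngp at 13.97 CPM and Hp at 12.7 CPM, S100a8 at 6.23 CPM, Ltf at 4.29 CPM and Lcn2 at 4.15 CPM, S100a9 at 3.32 CPM, Camp at 3.18 CPM and Chil3 at 3.18 CPM, and Anxa1 at 0.553 CPM from 4 reads. PBP 5 stood apart for 6: Ngp at 3.11 CPM, S100a8 at 1.71 CPM, S100a9 at 0.777 CPM, Camp at 0.621 CPM, Chil3 at 0.466 CPM and Ltf at 0.311 CPM, the last from 2 reads. PP 3 did so for 5: S100a9 at 2.66 CPM, Ngp at 2.02 CPM, S100a8 at 1.39 CPM, Anxa1 at 1.14 CPM and Chil3 at 1.01 CPM. PL 3 did so for Ngp at 6.87 CPM and Ltf at 1.07 CPM.

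The other 5 rest on 1 to 7 reads. They were Ltf in LBL 1 at 0.158 CPM, Lcn2 in PP 5 at 0.126 CPM and Anxa1 in PL 2 at 0.178 CPM with 1 read each, Hp in LBL 2 at 0.486 CPM with 5 reads, and Anxa1 in PBP 3 at 0.941 CPM with 7 reads.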

How the results depend on the processing

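Of the alternative values of the main results outside leave-one-out, 50 were classed as the same and 17 as moved. A reversal could be seen only in the median log2 fold changes, and none of those reversed. Counts classed as the same could still differ a little, such as 2 calls instead of 3 in LL against PP with DESeq2. The count of genes called rose from 0 to 1 in LL against PL with DESeq2. With PBL left out of filter and model, 2 genes could be tested and 0 were called in PL against PP, LL against PP and LBL against PBP. With the sorter in the model 0 were called in LL against PP and LBL against PBP, and the median log2 fold change was 5.98 for PBL against PBP and 1.56 for PBL against PL. Leaving out PP 3, PBP 5, PL 3 and LL 4, added after seeing the data, gave 2 calls in PL against PP and 1 in LL against PP. The median ratio of summed reads was 356 for PBL against PP without PP 3, 194 against PL without PL 3 and 207 against LL without LL 4. Pairs moving together numbered 17 with a prior count of 0.5, 16 without PBL, 17 without LL 4 and PL 3, and 1 without the 4 libraries, instead of 27.

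Leaving out each library in turn gave 1 to 2 calls in PL against PP (2 without PP 3), 1 to 4 in LL against PP (1 without LL 4, 4 without PP 3), 0 to 1 in LL against PL (1 without LL 2), 1 in LBL against PBP, and 0 in PBP against PP and LBL against LL. Medians ran from 7.88 to 10.5 for PBL against PBP, 5.30 to 7.54 for PBL against PL and -8.71 to -7.53 for LBL against PBL.

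With the replicate block, 1 gene was called in PL against PP, 2 in LL against PP, 1 in LBL against PBP and 0 in the other 3 comparisons, and the medians were 8.45, 6.02 and -7.89. Deviations of same-numbered libraries correlated from -0.311 to 0.290, and in no comparison were all pairs over 0.1, so the numbers were not taken as a pairing.

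At these totals a gene with 1 to 5 reads per library gives no reliable fold change, which holds for most of the 10 genes outside PBL.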

Other observations

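Of 5 genes that draw or release neutrophils, 3 passed the filter, and all 3 were higher in PL than in PP (14.2% of all genes tested) and in PBL than in PBP (21.5%). The level of Cxcl2, a chemokine that binds the neutrophil receptor CXCR2, averaged 10.9 CPM (SD 6.46, n = 4) in PL, 8.35 CPM (SD 2.89, n = 5) in PBL and 0.561 CPM or less in each other group. Cxcl1, of the same family, was at 5.27 ± 2.85 CPM in PL and 1.91 ± 0.779 CPM in PBL, and Csf3, which encodes the neutrophil growth factor G-CSF, at 4.65 ± 2.64 and 2.23 ± 1.78 CPM. None of the 3 was called between PBL and PL (edgeR adjusted p = 0.656 for Cxcl2, 0.108 for Cxcl1 and 0.339 for Csf3), and all 3 were lower in LL than in PL (2.78% of all genes called in either direction) and in LBL than in PBL (4% lower). The means of all 3 were higher in PL than in PBL, a difference not called for any of them. Granule gene sums were 1.74 to 22.7 CPM in PL and 138 to 566 CPM in PBL. Any link between these levels was not tested.

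Saa3, an acute-phase gene, averaged 18.9 CPM (SD 9.69) in PBL, 10.9 CPM (SD 6.97) in PL, 9.33 CPM (SD 5.11) in LL and 3.86 CPM (SD 2.57) in LBL, against 0.149 CPM in PP and 0.0179 CPM in PBP. Fpr1 encodes a formyl peptide receptor of myeloid cells that annexin A1 also engages. It was called higher in PL than in PP (edgeR log2 fold change 4.01, SE 0.72, adjusted p = 4.51e-05) and in LL than in PP (4.25, SE 0.70, adjusted p = 1.52e-05). Fpr1 was likewise higher in PBL than in PBP (5.41, SE 0.88, adjusted p = 6.1e-06) and in LBL than in PBP (4.24, SE 0.92, adjusted p = 0.000575). Tlr4, a receptor of calprotectin as well as of LPS, was called lower in PBL than in PBP (edgeR log2 fold change -1.70, SE 0.15, adjusted p = 1.6e-11). It was also called lower in PL than in PP (-1.06), LL than in PP (-0.68), LBL than in PBP (-0.81) and PBL than in PL (-0.59). Of the 7 genes listed as receptors or partners of the 10, 3 were higher and 1 lower in PBL than in PBP (43.1% of all genes in either direction). Against PP, 2 were higher and 2 lower in PL (26.2%).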
